A study of Mus musculus with 6 samples.

Results

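The proteases that release the outermost cells of the epidermis, with their main inhibitor, an activator and a substrate, were followed in tail skin of young and aged mice. The group held 10 genes: the kallikreins Klk5, Klk6, Klk7, Klk8, Klk10, Klk11 and Klk14, the inhibitor gene Spink5, the activating protease St14 and the substrate Cdsn. Its members were the array probes whose RefSeq accession belongs to one of these genes. Each gene had 1 such probe, so 10 of the 55681 probes and 10 of the 21368 named genes were taken. Whether a gene is represented by the right isoform cannot be judged from 1 probe.

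Whole epidermis was lifted from tail skin with EDTA, and its total RNA was amplified, marked with the dye Cy3 and measured on Agilent arrays of 1 colour. All 6 samples came from wild-type C57BL/6 mice, 3 young and 3 aged. The young samples were from mice of 8 weeks. In the aged group replicate 1 was taken at 22 months, and the others, replicates 2 and 3, at 25 months. The sex is not given, nor is it stated that the samples are of different animals. The p-values therefore reflect only the spread from sample to sample, part of which may be technical. In the aged group that spread includes any difference between 22 and 25 months.

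The cornified layer is held together by corneodesmosomes, junctions in which corneodesmosin, the product of Cdsn, binds the cells with desmogleins and desmocollins. Kallikreins are secreted serine proteases, made as inactive precursors by differentiating keratinocytes, which cut these proteins so that surface cells are shed. They activate one another in a cascade that matriptase, the product of St14, can start in mice, and LEKTI, the inhibitor encoded by Spink5, holds them back. Loss of SPINK5 causes Netherton syndrome in humans, a disease of excess shedding.

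Levels are log2 spot signals minus the 75th percentile of the same array, so 0 is the signal that 75% of probes do not exceed, and levels of different probes are not compared. The 75th percentile lay between 229.9 and 299.8 signal units, the share of probes that the scanner marked well above background ran from 50.02% to 54.38%, and 0 spots were saturated. Precision is limited by having 6 arrays. All 10 genes of a granular and spinous keratinocyte list and all 6 of a basal list were well above background on every array. Aged replicate 1 stood apart, in age and in its readings. With all arrays 11 of 14136 tested genes passed an adjusted p of 0.05 (limma, Benjamini-Hochberg), which is 0.0778%. That count was 818, or 5.79%, without aged replicate 1, and 0 when any one of the other arrays was left out, with 1311 to 2373 genes then at an unadjusted p under 0.05. A fit with replicate block gave 0 genes, and 2690 at an unadjusted p under 0.05 against 2479 without the block. The Y-linked genes Ddx3y, Eif2s3y and Kdm5d were well above background only on replicate 1 of each group. Uty, another, was above it on 2 young arrays and 1 aged array. The X-linked gene Xist was lowest on the arrays numbered 1, at -2.87 in young and -7.06 in aged samples. On replicates 2 and 3 Xist read 1.34 and 1.24 in young and 0.72 and 0.99 in aged samples. Eif2s3y read 3.32 in young and 3.44 in aged samples on the arrays numbered 1, and between -6.89 and -6.62 on the others. Ddx3y read 2.17 and 1.90 on the arrays numbered 1, and between -6.73 and -6.48 on the others. Whether the samples differ in sex was not tested. Results that rest on the arrays numbered 1 are given with and without them.

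The genes of the 7 kallikrein members lie in 1 cluster on chromosome 7, St14 lies on chromosome 9 and Cdsn on chromosome 17. Promoters, taken as 250 bases before to 50 after a start site, were read from RefSeq (GRCm38.p6) for 8 of the 10 members, which have 11 between them. Those of Klk10, Klk6, Klk8 and Klk5 are printed because Klk10 and Klk6 had the most similar profiles among members, Klk8 was lower on every aged array, and the groups overlapped for Klk5. All are on the plus strand: Klk10 at chr7:43780804-43781103, the second start of Klk6 at chr7:43825200-43825499, Klk8 at chr7:43797327-43797626 and Klk5 at chr7:43842019-43842318. Capitals mark the letters TTAAAA in the first 3 and, in Klk5, AGATAA read on the minus strand.
Klk10: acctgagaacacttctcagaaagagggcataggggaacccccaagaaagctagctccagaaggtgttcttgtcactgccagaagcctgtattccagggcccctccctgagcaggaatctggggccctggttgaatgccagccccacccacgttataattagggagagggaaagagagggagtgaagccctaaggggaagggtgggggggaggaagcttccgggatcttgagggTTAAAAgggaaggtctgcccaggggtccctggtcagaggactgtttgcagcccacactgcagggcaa
Klk6: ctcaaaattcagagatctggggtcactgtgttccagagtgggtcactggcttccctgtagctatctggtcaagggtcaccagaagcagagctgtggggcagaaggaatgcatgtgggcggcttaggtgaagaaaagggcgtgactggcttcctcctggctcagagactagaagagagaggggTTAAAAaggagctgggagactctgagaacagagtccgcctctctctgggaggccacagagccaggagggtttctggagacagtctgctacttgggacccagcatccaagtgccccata
Klk8: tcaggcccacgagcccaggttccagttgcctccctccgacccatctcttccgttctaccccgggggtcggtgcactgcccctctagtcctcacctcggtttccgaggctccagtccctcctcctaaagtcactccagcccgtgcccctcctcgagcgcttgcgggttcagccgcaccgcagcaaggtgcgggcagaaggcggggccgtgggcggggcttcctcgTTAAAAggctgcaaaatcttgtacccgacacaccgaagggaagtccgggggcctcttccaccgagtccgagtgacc
Klk5: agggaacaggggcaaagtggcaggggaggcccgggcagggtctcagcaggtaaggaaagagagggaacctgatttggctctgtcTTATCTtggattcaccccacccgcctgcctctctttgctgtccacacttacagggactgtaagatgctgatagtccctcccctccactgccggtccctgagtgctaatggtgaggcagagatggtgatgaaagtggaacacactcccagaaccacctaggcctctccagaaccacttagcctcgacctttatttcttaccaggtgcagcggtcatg

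Each promoter was searched on both strands for the TATA box letters TATAAA, the AP-1 letters TGANTCA, the GATA letters AGATAA and the C/EBP letters TTGCNNAA. The run TTAAAA was added after the sequences had been read. Neither TATAAA, held by 13.6% of the 32851 promoters in the table, nor TGANTCA, held by 7.81%, occurred in any of the 11. TTAAAA, held by 19.2% of all promoters, lay at -17 to -12 from the start in Klk10, at -26 to -21 in Klk8 and at -68 to -63 in Klk6. It also lay at -233 to -228 in the first start of Klk11, where it overlaps a match to the C/EBP letters. The C/EBP letters, held by 10.8% of promoters, occurred at both starts of Klk11 and at the second start of Cdsn. The GATA letters, held by 11.2%, occurred in Klk7 at 30 to 35 and in Klk5 at -166 to -161. These matches are letters in a window and do not show that a factor binds.

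In aged epidermis none of the 9 tested members passed the adjusted threshold, and 2, Klk8 and St14, were lower at an unadjusted p under 0.05. The background for that looser count was 6.32% of genes lower and 11.2% higher, or 17.5% in either direction. With the replicate block the members under 0.05 were Klk6 (limma, unadjusted p = 0.0296) and St14 (0.0309), and Klk8 was at 0.0713. Of the 9, 7 had a lower mean in aged epidermis and 2, Klk7 and Spink5, a higher one. Their median difference was -0.16 log2 units, against 0.091 over all tested genes, of which 36.7% were lower. The members' median ran from -0.30 without aged replicate 3 to -0.11 without aged replicate 1, and was -0.084 with both arrays numbered 1 left out. All 9 were well above background on every array, and Klk14 was too dim to be tested. When arrays were weighted by their estimated quality, 3 members, Klk8, Klk10 and St14, passed as lower, and so did 9.33% of all genes. The weights were 0.27, 4.79 and 0.44 for aged replicates 1, 2 and 3, so that fit rests mainly on aged replicate 2 for the aged group. For young replicates 1, 2 and 3 they were 0.54, 1.44 and 2.25. The plot of member signals by array sets the groups side by side. In bulk tissue fewer cells of a type and less RNA per cell cannot be told apart.

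**Figure D1:**
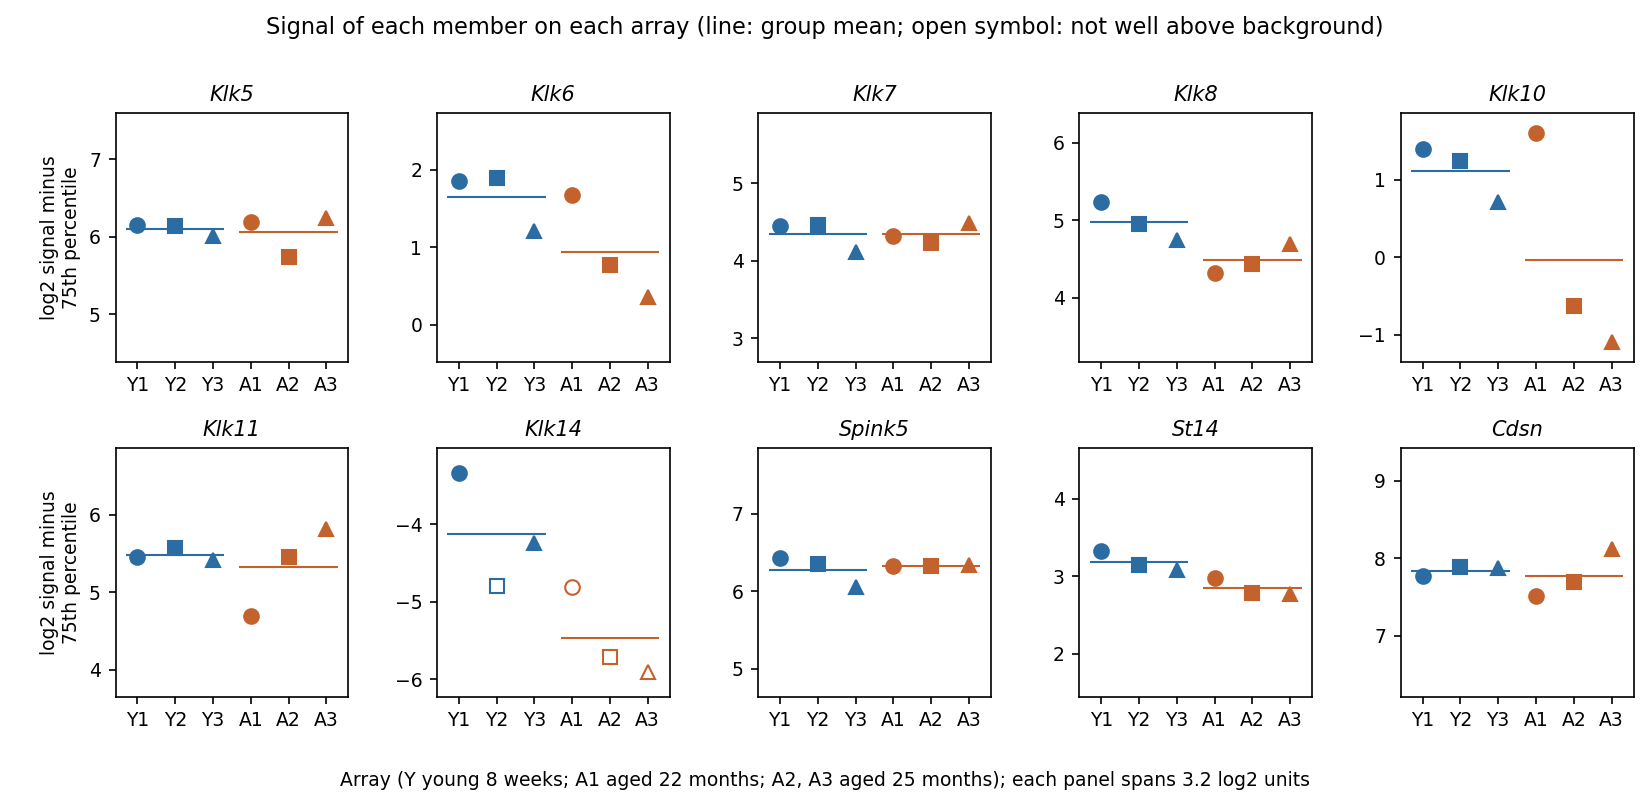
Each panel plots one gene's log2 signal minus the array's 75th percentile on the 6 arrays, with young arrays in blue, aged arrays in orange, a line at each group mean and open symbols where the probe was not well above background. Klk8, St14 and Klk14 have every aged array under every young one, aged replicate 1 lies within the young range for Klk6 and above it for Klk10, and the aged arrays of Spink5 nearly coincide.

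Klk5 encodes a trypsin-like kallikrein that can activate itself and then the precursors of Klk7 and Klk14. Its level was 6.15, 6.13 and 6.01 on the young arrays and 6.20, 5.73 and 6.25 on the aged ones. Aged replicate 2 was the lowest of the 6 and the other two aged arrays were the highest, so the groups overlapped. The aged mean differed by -0.041 ± 0.17 log2 units (SE of the limma fit, n = 3 against 3, adjusted p = 0.918), with a 95% interval of -0.45 to 0.37. The interval allows a fall of up to 1.36-fold or a rise of up to 1.29-fold.

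Klk7 encodes the chymotrypsin-like kallikrein of the cornified layer, which cuts corneodesmosin. Young levels were 4.45, 4.46 and 4.11 and aged levels 4.32, 4.23 and 4.49. The groups overlapped, with aged replicate 3 the highest and young replicate 3 the lowest of the 6. The limma difference was 0.0045 ± 0.15 log2 units (adjusted p = 0.990), with a 95% interval of -0.36 to 0.37.

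Klk8 encodes neuropsin, a trypsin-like kallikrein of the upper epidermis that is also known from the brain. Its level was 5.24, 4.95 and 4.75 on the young arrays and 4.32, 4.44 and 4.70 on the aged ones. Every aged array lay under every young array, with a gap of 0.047 log2 units between aged replicate 3 and young replicate 3. Over all tested genes, 7.52% had every aged array under every young one. The aged mean was 1.41-fold lower, a difference of -0.49 ± 0.18 log2 units (95% interval -0.92 to -0.066), which did not pass after adjustment in limma (adjusted p = 0.235, unadjusted 0.0300, and 0.0713 with the replicate block). Young replicate 1 was the highest array for Klk8 and aged replicate 1 the lowest. With both arrays numbered 1 left out the difference was -0.28 ± 0.16 log2 units (limma, adjusted p = 0.330, unadjusted 0.151). Position on the slide moved with the difference of Klk8: young replicates 1 and 2 lay in 1 row and the other 4 arrays in the other row. Within that second row the aged mean was -0.26 ± 0.24 log2 units from young replicate 3 (limma, row as a block, adjusted p = 0.753).

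Klk6 and Klk10 were dimmer members with a shared pattern. Klk6 encodes a trypsin-like kallikrein also known as neurosin, and Klk10 a kallikrein of differentiating epithelia. The level of Klk6 was 1.86, 1.89 and 1.21 on the young arrays and 1.67, 0.77 and 0.36 on the aged ones. Aged replicate 1 fell within the young range and aged replicates 2 and 3 lay below it. The limma difference over all arrays was -0.72 ± 0.37 log2 units (95% interval -1.63 to 0.19, adjusted p = 0.357), and without aged replicate 1 it was -1.09 ± 0.26 (adjusted p = 0.0817). With both arrays numbered 1 left out it was -0.99 ± 0.29 (limma, adjusted p = 0.149). Within the second slide row the aged mean of Klk6 was -0.27 log2 units from young replicate 3.

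The level of Klk10 was 1.39, 1.24 and 0.71 on the young arrays and 1.60, -0.62 and -1.09 on the aged ones. Aged replicate 1, from the mouse of 22 months, was the highest of all 6 arrays, and the arrays of 25 months were the lowest. The SD among aged arrays was 1.44 log2 units, and 2.79% of all tested genes had a larger one. Over all arrays the limma difference was -1.15 ± 0.70 log2 units (95% interval -2.84 to 0.54, adjusted p = 0.414). Without aged replicate 1 it was -1.97 ± 0.26, 3.92-fold lower, and passed (adjusted p = 0.0177), where 3.83% of all tested genes passed as lower. With both arrays numbered 1 left out it was -1.83 ± 0.26 and did not pass (adjusted p = 0.0634), where 1.18% of genes passed as lower. Within the second slide row the aged mean of Klk10 was -0.75 log2 units from young replicate 3. The age of an aged sample and the other ways in which aged replicate 1 differs cannot be told apart, since 1 array is of that age. Those ways include its readings of sex-linked genes.

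**Figure D2:**
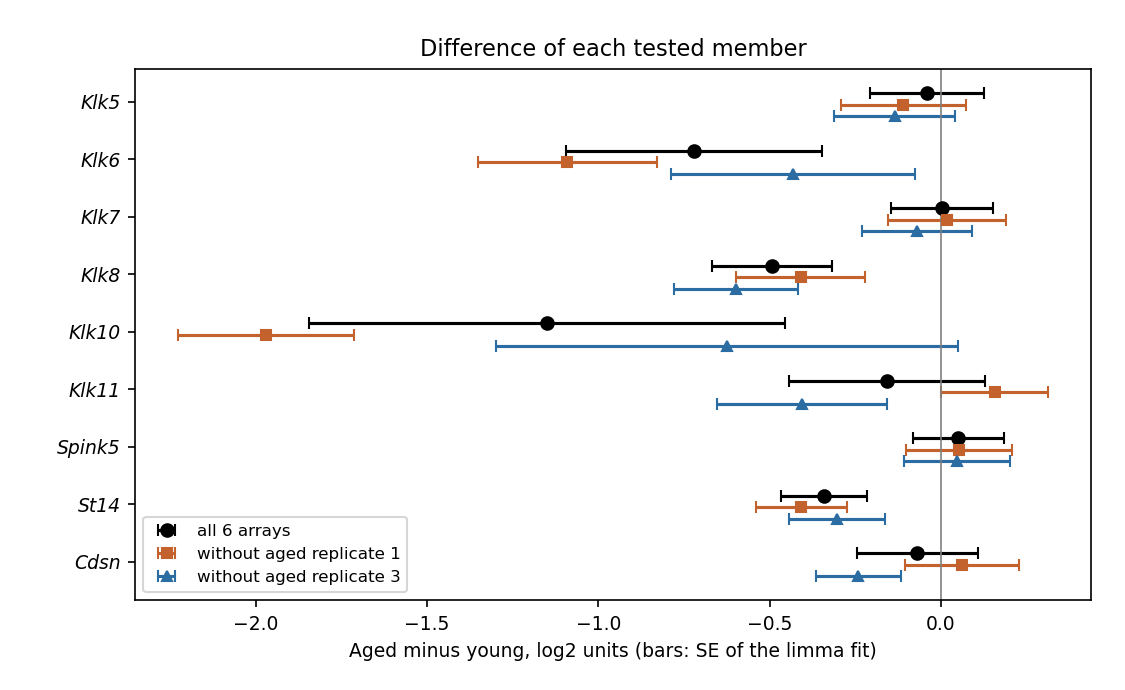
The aged minus young difference of the 9 tested members in log2 units, with bars for the SE of the limma fit, is drawn for all 6 arrays (black), without aged replicate 1 (orange) and without aged replicate 3 (blue). Klk10 moves from -0.62 without aged replicate 3 to -1.97 without aged replicate 1. Klk5, Klk6, Klk8, Klk10 and St14 stay below 0 under both.

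Some markers of other structures were, like Klk6 and Klk10, highest among the aged arrays on replicate 1, as the plot of marker lists by array shows. Of a hair shaft and inner root sheath list, 11 of 11 measured genes had a lower aged mean. The log2 summed level of that list was between 10.1 and 10.7 on the young arrays and 9.75, 7.46 and 4.45 on aged replicates 1, 2 and 3. All 8 melanocyte genes had a lower aged mean, with log2 sums of 3.95 to 4.28 in young and 3.81, 2.61 and 2.38 in aged samples. Of 7 sebaceous gland genes 4 had a lower mean, with log2 sums of 4.89 to 5.93 in young and 6.54, 5.41 and 4.33 in aged samples. On all 3 lists aged replicate 1 was the highest aged array, as it was for Klk6 and Klk10. The profiles differed otherwise in part. In log2 sum the hair and melanocyte lists on aged replicate 1 were below every young array and the sebaceous list above. By median deviation from the young mean, the melanocyte list was at -0.15 on that array, within the young range of -0.17 to 0.18. Klk6 lay within its young range on aged replicate 1, and Klk10 lay above its own. No gene of these 3 lists was below background on all 6 arrays, and their part in the result was not tested. The granular and spinous list, of the layers that make kallikreins, had a median deviation from the young mean of -0.11, 0.031 and 0.15 on the 3 aged arrays.

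Other cell types were checked in the same way. Of 6 fibroblast genes, Lum and Pdgfra were below background on all arrays, and of the 4 tested, 3 had a lower aged mean and 2, Col1a1 and Col3a1, passed the threshold. Neither passed with normexp, another background correction (limma adjusted p = 0.0546 and 0.105) or with the replicate block (0.155 and 0.153). Col1a1, a collagen gene of dermal cells, was well above background on 2 aged arrays and had a measured difference of -2.95 ± 0.18 log2 units (limma, adjusted p = 0.0282), which was -1.16 ± 0.14 with normexp, and the probe of Col3a1 was well above background on 0 aged arrays. The log2 sum of the fibroblast list was 2.41 to 3.03 in young samples and 4.36, 2.00 and 1.33 in aged samples. That sum mostly reads its brightest gene, Dcn, at 4.34, 1.92 and 1.20 on aged replicates 1, 2 and 3. The list's median deviation from the young mean was -2.02, -2.39 and -2.33 on those arrays. Of 4 T cell genes, Cd3d and Cd247 were below background throughout, and of 4 Merkel cell genes Krt20 was. The part of these cells in the members' values was not tested.

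**Figure D3:**
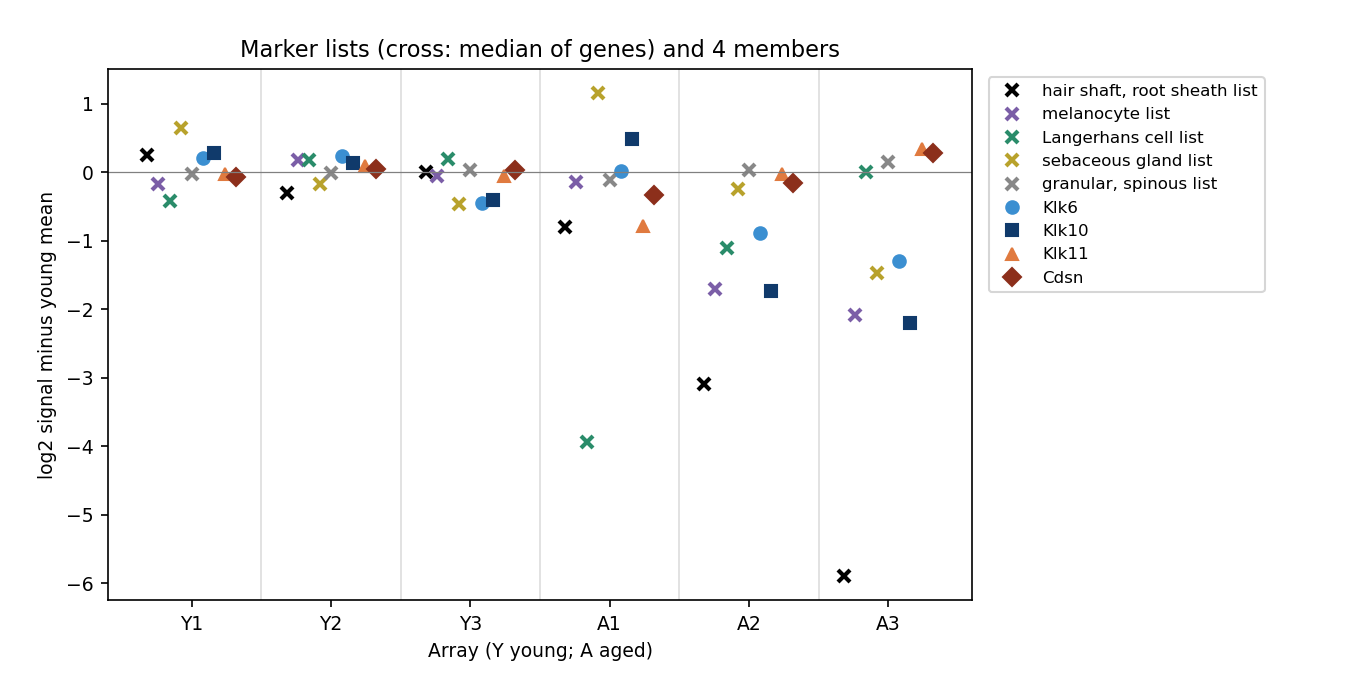
Each symbol is the log2 signal minus the young mean on one array, as the median over a marker list (crosses) or for Klk6, Klk10, Klk11 and Cdsn (filled symbols). The hair list is at -0.80, -3.09 and -5.89 on aged replicates 1, 2 and 3, and the Langerhans cell list is lowest on aged replicate 1 at -3.94.

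Klk11 encodes a trypsin-like kallikrein of differentiating keratinocytes and ran the other way among the aged samples. Young levels were 5.45, 5.57 and 5.41 and aged levels 4.69, 5.45 and 5.82. Aged replicate 1 was the lowest and aged replicate 3 the highest of the 6, on both sides of a narrow young range. The limma difference was -0.16 ± 0.29 log2 units (95% interval -0.85 to 0.54, adjusted p = 0.801), and 0.16 ± 0.16 without aged replicate 1. The 6 genes of the Langerhans cell list followed the same order among aged samples, with log2 sums of 1.03, 2.92 and 3.92 against 3.48 to 4.09 in young samples. All 6 had a lower aged mean and none was below background throughout, and their part in the result was not tested. The order was not particular to that list. Median deviations on aged replicates 1, 2 and 3 were -0.11, 0.031 and 0.15 for the granular and spinous list. For the corneodesmosome and desmosome list they were -0.16, 0.067 and 0.12.

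Klk14 encodes a trypsin-like kallikrein that Klk5 activates and that was at the edge of detection here. Young levels were -3.35, -4.80 and -4.25, and aged levels -4.81, -5.71 and -5.90. The probe was well above background on young replicates 1 and 3 and on 0 aged arrays. Every aged array read under every young one, by a gap of 0.0070 log2 units. Because the aged signal is only a bound, the young mean was set against the higher of the probe's own level and the lowest detectable one on each aged array, which made Klk14 at least 1.40-fold lower in aged samples on this signal scale, with no test. That young mean includes replicate 2, which was not well above background. The measured means were -4.13 and -5.47, a difference of -1.34. With normexp background correction the difference was -0.18, smaller than the bound, so the bound does not hold under that correction.

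Spink5, the inhibitor, was nearly constant among aged samples. Young levels were 6.42, 6.35 and 6.06, and aged levels 6.33, 6.32 and 6.34. The SD of the aged arrays was 0.010 log2 units, and 0.219% of all tested genes had a smaller one, while the young SD was 0.19. The limma difference was 0.052 ± 0.13 log2 units (adjusted p = 0.866), with a 95% interval of -0.27 to 0.37. The interval of that fit allows a fall of up to 1.21-fold or a rise of up to 1.30-fold. Within the second slide row the aged mean of Spink5 was 0.27 log2 units above young replicate 3.

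St14 encodes matriptase, the membrane protease that can start the cascade. Young levels were 3.33, 3.14 and 3.08, and aged levels 2.98, 2.79 and 2.77. Every aged array lay under every young one, with a gap of 0.11 log2 units. The aged mean was 1.27-fold lower, -0.34 ± 0.13 log2 units (95% interval -0.65 to -0.035), and did not pass after adjustment in limma (adjusted p = 0.244, unadjusted 0.0341). Within the second slide row it was -0.24 ± 0.19 (limma, row as a block, adjusted p = 0.730), and without aged replicate 1 it was -0.41 ± 0.13 (adjusted p = 0.156).

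Cdsn, the substrate, had young levels of 7.77, 7.88 and 7.87 and aged levels of 7.51, 7.69 and 8.12. Aged replicates 1 and 2 lay below the young range and aged replicate 3 above it. The limma difference was -0.068 ± 0.18 log2 units (95% interval -0.50 to 0.36, adjusted p = 0.867). Aged replicate 1 was the lowest aged array for Cdsn as for Klk11.

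Because the inhibitor, the proteases and the substrate act together, each member's shift was also taken relative to that of Spink5 on the same array, as a description without a test. Relative to Spink5, Klk8 was at -0.71, -0.58 and -0.34 on the aged arrays, against 0.11, -0.10 and -0.011 on the young ones. The mean shift of Klk8 was -0.54 ± 0.12 log2 units (SE, n = 3 against 3). St14 was at -0.26, -0.44 and -0.48 on the aged arrays, a mean shift of -0.39 ± 0.096. Klk8 and St14 kept every aged array under every young one on this scale. Klk7 stayed closest to the inhibitor, with a mean shift of -0.047 ± 0.076, and Klk5 was at -0.092 ± 0.17. Klk10 was at -1.20 ± 0.84, Klk6 at -0.77 ± 0.41, Klk11 at -0.21 ± 0.34 and Cdsn at -0.12 ± 0.22. These are shifts of transcripts, and protease activity was not measured.

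The members' neighbours in the cluster are kallikreins as well. In the order Klk14, Klk13, Klk12, Klk11, Klk10, Klk9, Klk8, Klk7, Klk6, Klk5, Klk4, Klk15 and Klk1, 11 of 13 genes were tested, and 10 of them had a lower aged mean. Their median difference was -0.39 log2 units, and 0 of 11 passed the adjusted threshold. The lowest aged array was replicate 1 for 5 genes, replicate 2 for 3 and replicate 3 for 3, so neighbours did not share 1 profile. Klk10, lowest on aged replicate 3, lies between Klk11 and Klk9, both lowest on aged replicate 1.

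**Figure D4:**
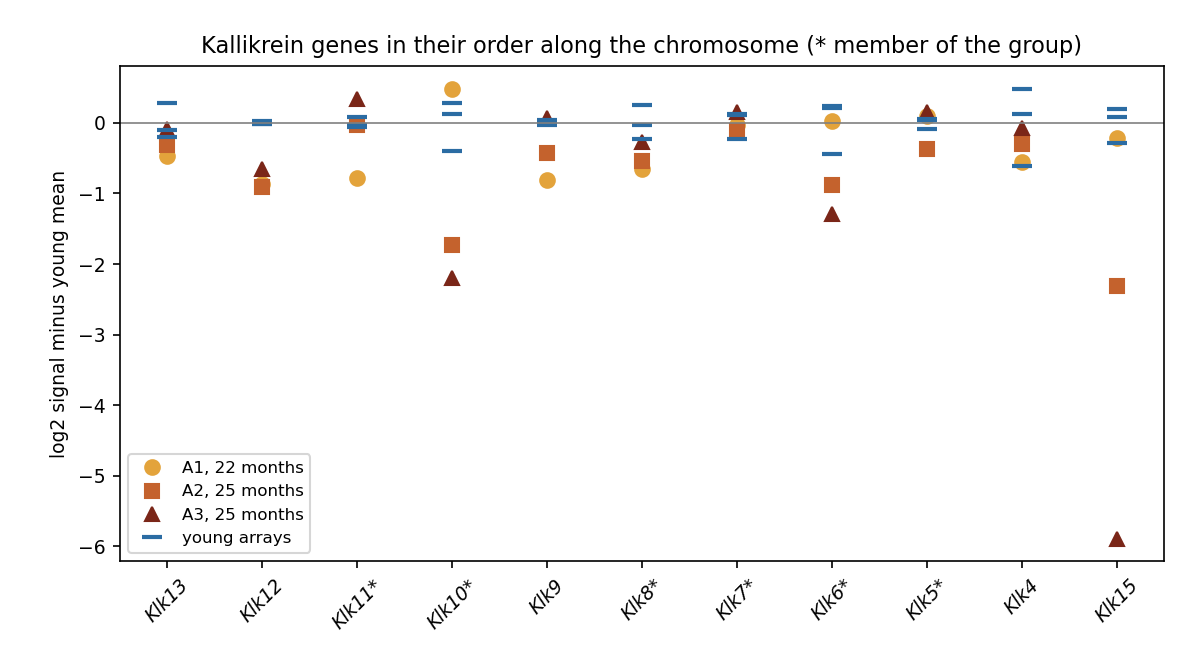
For the 11 tested kallikrein genes in their chromosomal order, orange to brown symbols give the log2 signal of each aged array minus the young mean and blue dashes give the young arrays. Klk12 and Klk8 have all aged arrays under all young ones, and Klk15, Klk10 and Klk6 spread widely among the aged arrays.

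Of the 6 kallikreins outside the group, Klk1 was below background on all arrays and 5 were tested, all with a lower aged mean and 0 past the threshold. Klk12 had young levels of 1.70, 1.70 and 1.74 and aged levels of 0.85, 0.80 and 1.06. Every aged array lay under every young one, and the aged mean was 1.76-fold lower, -0.81 ± 0.12 log2 units (limma, adjusted p = 0.0987). The limma adjusted p for Klk12 was 0.0346 without aged replicate 1, 0.0480 with normexp and 0.00488 with array weights. It was 0.0820 with both arrays numbered 1 left out, 0.157 with the replicate block and 0.569 with slide row as a block. Klk15 had young levels of -1.07, -0.59 and -0.70 and aged levels of -1.01, -3.10 and -6.68, the last below background. Its measured difference was -2.81 ± 1.34 (limma, adjusted p = 0.327), which rests on that reading, and it was -1.04 ± 0.37 with normexp (adjusted p = 0.200). Klk9 differed by -0.39 ± 0.23 and Klk13 by -0.29 ± 0.18.

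Other protease inhibitors of the epidermis gave 9 tested genes of 10, 5 with a higher and 4 with a lower aged mean, 0 past the threshold and a median difference of 0.025. Slpi, whose product inhibits serine proteases and, in humans, KLK7, had young levels of 2.80, 3.26 and 3.33 and aged levels of 2.77, 5.32 and 5.11. The 2 samples of 25 months were high and aged replicate 1 was the lowest of all. The difference was 1.27 ± 0.68 log2 units (limma, adjusted p = 0.367), and 2.09 ± 0.20 without aged replicate 1, which passed (adjusted p = 0.0100), as it did with both arrays numbered 1 left out (1.92 ± 0.14, adjusted p = 0.0245). Without aged replicate 1, 1.96% of all tested genes passed as higher. With both arrays numbered 1 left out, 72 of 14136 did. Spink6, a relative of Spink5, differed by -1.04 ± 0.53, the cystatin gene Cst6 by -0.24 ± 0.31 and Spint1, which encodes the matriptase inhibitor HAI-1, by -0.17 ± 0.13.

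Proteases that can activate others gave 8 tested genes of 10, 5 higher and 3 lower, 0 past the threshold and a median of 0.12. Tmprss11e, a membrane serine protease, was lower on every aged array (-0.55 ± 0.13, limma adjusted p = 0.151). Plau, the urokinase gene, had every aged array above every young one, as did 19.2% of all genes (0.87 ± 0.22, limma adjusted p = 0.158), as was Furin, a proprotein convertase gene (0.32 ± 0.12, limma adjusted p = 0.240). Tmprss4 differed by 0.21 ± 0.19.

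The corneodesmosome and desmosome list, which holds the other substrates, gave 10 tested genes, 6 higher and 4 lower, 0 past the threshold and a median of 0.029. Dsg1a, a desmoglein that kallikreins cut, differed by 0.28 ± 0.16 log2 units (limma, adjusted p = 0.382). It shares sequence with Dsg1b and Dsg1c, so its probe may read more than 1 of them. Dsp, the desmoplakin gene, differed by 0.18 ± 0.12, the periplakin gene Ppl by -0.091 ± 0.15 and Jup, which encodes plakoglobin, by -0.093 ± 0.11.

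Cathepsins and cystatins, a second protease system of the cornified layer, gave 10 tested genes, 4 higher and 6 lower, 0 past the threshold and a median of -0.089. Ctsh was higher on every aged array (0.68 ± 0.15, limma adjusted p = 0.142). Ctsb was lower on every aged array (-0.45 ± 0.16, limma adjusted p = 0.228), and so was Ctsc (-0.45 ± 0.17, limma adjusted p = 0.252). Ctsz had young levels of 0.054, -0.64 and -0.45 and aged levels of -0.61, -2.07 and -2.71, with aged replicate 1 inside the young range. Its difference was -1.45 ± 0.53 (limma, adjusted p = 0.243), and -2.04 ± 0.28 without aged replicate 1 (adjusted p = 0.0207). With both arrays numbered 1 left out Ctsz did not pass (-1.85 ± 0.25, limma adjusted p = 0.0599).

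Filaggrin processing runs beside shedding in the same cells. All 7 tested genes had a lower aged mean, against 36.7% of all tested genes, 0 passed, and the median was -0.080. The list's median deviation from the young mean was -0.49, 0.00073 and 0.00055 on aged replicates 1, 2 and 3. Without aged replicate 1 the median difference of the list was 0.031, so the shared direction rests on that array. Padi1, a peptidylarginine deiminase that converts arginine in keratins and filaggrin to citrulline, had young levels of 0.95, 0.50 and 0.62 and aged levels of -0.53, -1.42 and -1.67. All aged arrays were below all young ones, and the mean was 3.72-fold lower, -1.89 ± 0.31 log2 units (limma, adjusted p = 0.108). Without aged replicate 1 the difference of Padi1 was -2.23 ± 0.18 and passed (adjusted p = 0.00668), as it did with both arrays numbered 1 left out (-2.10 ± 0.15, adjusted p = 0.0242). Flg2 differed by -0.21 ± 0.26, Blmh, the bleomycin hydrolase gene, by -0.18 ± 0.17 and Capn1 by -0.035 ± 0.12.

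Receptors and other targets of these proteases gave 5 tested genes of 8, 3 higher and 2 lower, 0 past the threshold and a median of 0.038. F2rl1, which encodes PAR-2, the receptor that Klk5 cuts, differed by 0.038 ± 0.28 log2 units. The sodium channel subunit gene Scnn1b was lower on every aged array (-0.84 ± 0.25, limma adjusted p = 0.194), and passed without aged replicate 1 at -1.11 ± 0.13 (adjusted p = 0.0147), but not with both arrays numbered 1 left out (-1.06 ± 0.13, adjusted p = 0.0511). Scnn1a, another subunit of that channel, was higher on every aged array (0.39 ± 0.13, limma adjusted p = 0.223). Camp, the cathelicidin gene, differed by -0.27 ± 0.14 and F2r, another protease-activated receptor, by 0.30 ± 0.18.

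**Figure D5:**
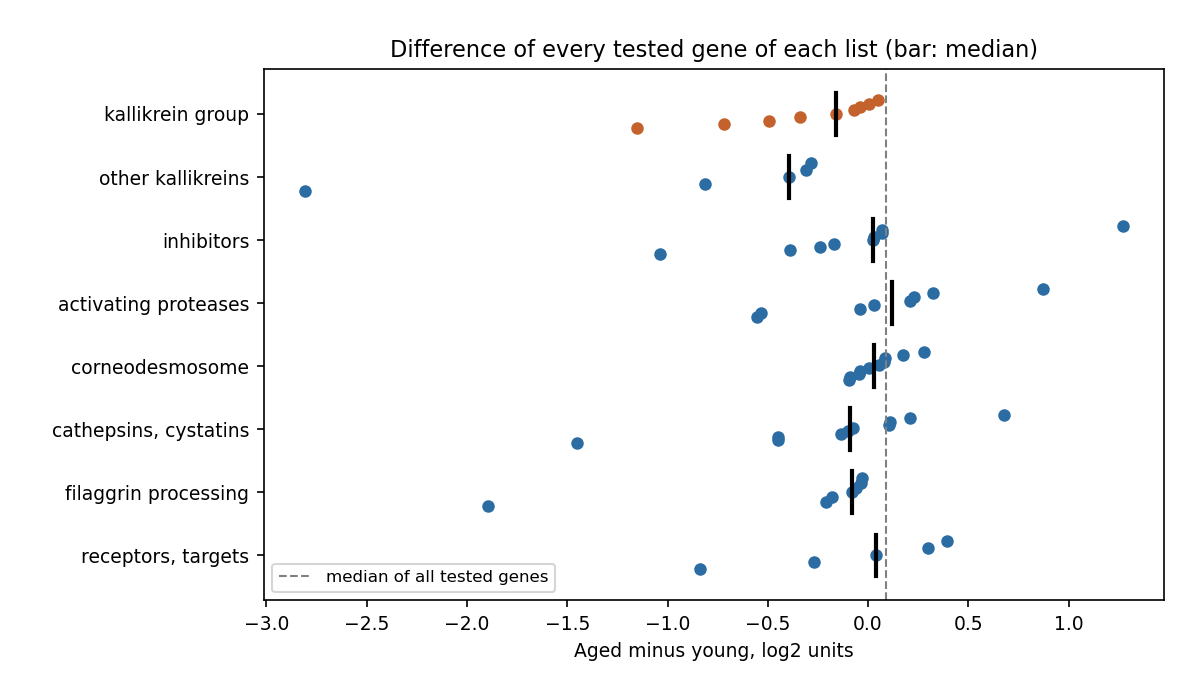
Each point is the aged minus young difference of 1 tested gene in log2 units, grouped by list, with a bar at the list median. The members' median lies at -0.16 and that of the other kallikreins at -0.39, while the medians of the other lists lie between -0.089 and 0.12.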

How the data were processed

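RNA of 6 tail epidermis samples was read on 1-colour arrays on 1 slide. The deposited scanner signal is an intensity on a linear scale from Feature Extraction 11.5.1.1, background-subtracted and detrended within each array, per the file headers. The authors' deposited value table holds log2 values of 33870 probes, which matched log2 signal minus each array's 75th percentile, centred per probe (r of at least 0.9999). Its scale and centring are unstated, and its column medians ran from -0.021 to 0.071.

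From the scanner files, log2 signal minus the array's 75th percentile was computed, without control spots and outlier spots. Of 55681 probes 28331 were named through RefSeq accessions and 27350 stayed unnamed. A probe was tested where well above background on at least 3 of 6 arrays, a gene by its brightest such probe. Groups were compared with limma 3.58.1 in R 4.3.3 (lmFit, eBayes, two-sided, no covariate), with Benjamini-Hochberg adjustment over all features and unnamed probes included. An exact permutation test of 3 against 3 cannot go below 0.1, so none is given.

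The members and lists were chosen with earlier results of these data known. Named were all members, up to 4 genes of each pathway list by unadjusted p, and for each member up to 3 genes most alike over the arrays. F2rl1 was named outside the rule, after its values were seen. Deviations of same-numbered samples correlated across features with r of 0.414, 0.259 and 0.102. All exceed 0.1, and the numbers were used as a replicate block in an alternative fit, while the main fit ignores them. Whether the numbers pair the samples is not settled, since the labels name nothing that they share. Young replicate 2 correlated more with aged replicate 3 (0.286), and young replicate 3 nearly as much with aged replicate 2 (0.0951). Alternatives were normexp background correction on median signals (offset 50, as mean signals were not used here), other scalings, filters and blocks, array weights, the deposited table, the mean over probes and leaving out arrays.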

Additional observations from a re-analysis of the deposited data

How the results depend on the processing

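The number of genes past an adjusted p of 0.05 (limma), 11 with all arrays, was 7 with quantile normalization, 21 with median scaling, 1 with no filter, 3 with detection on all 6 arrays, 239 with both arrays numbered 1 left out and 3193 with array weights, whose estimate did not fully converge. It was 0 with the replicate block (unadjusted, 2690 genes under 0.05) and 0 with slide row as a block (unadjusted, 846), and ran from 0 to 818 when 1 array was left out; 818 was without aged replicate 1, and 1311 to 2373 genes were at an unadjusted p under 0.05 where the count was 0. The replicate block changed no adjusted call of a member. Klk8 (-0.43), Klk10 (-1.53) and St14 (-0.34) passed with array weights, 3 members against 0 with equal weights, where 9.33% of all genes passed as lower; 1 member, Klk10, passed without aged replicate 1. The differences near 0 changed sign: Klk5 to 0.029 with median scaling and 0.045 with slide row as a block, Klk7 to -0.080 with quantile normalization and -0.021 with array weights, Klk11 to 0.14 and Cdsn to 0.028 with both arrays numbered 1 left out, and Cdsn to 0.0015 with median scaling. The measured difference of Klk14 became -0.18 with normexp. The cause was not tested for these. With 1 array left out, Klk5 ran from -0.13 to 0.12, Klk7 from -0.11 to 0.065, Klk10 from -1.97 to -0.62, Klk11 from -0.41 to 0.16, Spink5 from -0.058 to 0.12, Cdsn from -0.24 to 0.062, Klk6 from -1.09 to -0.43, Klk8 from -0.61 to -0.36 and St14 from -0.41 to -0.27, and the number of members past the threshold from 0 to 1. Passing genes with array weights, where 3193 of 14136 genes passed in either direction, were also counted by list. They numbered 2 among other kallikreins, 1 among inhibitors, 3 among activating proteases, 4 among cathepsins and cystatins, 1 in filaggrin processing and 1 among receptors. With normexp 1 other kallikrein passed, and with both arrays numbered 1 left out 1 inhibitor and 1 filaggrin processing gene. With 1 array left out these numbers ran from 0 to 1 for other kallikreins, inhibitors, cathepsins and cystatins, filaggrin processing and receptors. List medians then ran from -0.62 to -0.20 for other kallikreins, -0.23 to 0.11 for inhibitors, -0.061 to 0.14 for corneodesmosome genes and -0.22 to 0.16 for receptors. The median of cathepsins and cystatins was 0.071 with slide row as a block and 0.0051 with both arrays numbered 1 left out. List medians near 0 changed sign in 23 of 136 alternative values: 7 for inhibitors, 5 for corneodesmosome genes, 5 for receptors, 3 for filaggrin processing, 2 for cathepsins and cystatins and 1 for activating proteases. Dim signal limits Klk14 and Klk15.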

Other observations

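Profiles across the 6 arrays were compared with those of 13077 named genes detected on all arrays, by Pearson's r as a description without a p. The arrays form 2 groups, and 6 points with 13077 candidates give high values for many genes. Klk10 was most like Plekhh1 (r = 0.998), Phtf1os (0.990) and Zfp365 (0.989). The level of Plekhh1 was 0.89, 0.80 and 0.57 on the young arrays and 0.88, -0.0045 and -0.20 on the aged ones, so aged replicate 1 again lay among the young arrays. Klk6 was most like Rnpc3 (0.995), Zfp1 (0.993) and Kif26b (0.991). Klk11 was most like Stfa1 (0.998), a cystatin family gene of the cathepsin and cystatin list, then Uros (0.998) and Nkx3-2 (0.996). Levels of Stfa1 were 7.17, 7.28 and 7.15 on the young arrays and 6.47, 7.22 and 7.49 on the aged ones, lowest on aged replicate 1 and highest on aged replicate 3. St14 was most like Ero1a (0.995), Cdsn like Fam160a2 (0.993), Klk5 like Pld3 (0.984), Spink5 like Ide (0.983), Klk8 like Gm3776 (0.979) and Klk7 like Ap1s2 (0.979). Among the members, the r of Klk6 with Klk10 was 0.964 and that of Klk11 with Cdsn 0.893.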
